A study of Homo sapiens with 16 samples.

Results

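The genes described here are 10 named members of the route that carries glucose from the medium to lactate: the glucose carrier SLC2A1 and the enzymes HK1, HK2, PFKP, ALDOA, PGK1, ENO1, ENO2, LDHA and LDHB. They were chosen by gene name, and all 10 were found among the 58735 genes of the deposited count table. The 16 RNA-seq libraries came from 4 established human breast cancer cell lines and formed 8 groups of 2 libraries. HCC1806 was sampled as spheroids 20 days after seeding, as spheroids 10 days after seeding and as monolayers, and BT474 was sampled in the same 3 forms. For CAL148 and ZR-75-30 there were monolayers alone. Per the labels HCC1806 and ZR-75-30 were kept in RPMI and BT474 and CAL148 in DMEM, all with 10% serum, and no drug or genetic change was named for any group. As general knowledge and not from the labels, BT474 and ZR-75-30 are known as ERBB2-positive lines, and HCC1806 and CAL148 as triple-negative lines that lack hormone receptors and ERBB2 amplification. Each line stands for itself alone, and groups were read from the sample titles because the treatment label gave monolayer for every sample, spheroids included. The labels do not say whether the 2 libraries of a group came from separate cultures, so every p-value measures the spread between these libraries, which may be technical.

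Glycolysis begins when a carrier of the SLC2A family lets glucose across the plasma membrane and a hexokinase traps it as glucose 6-phosphate. Phosphofructokinase then commits the sugar to breakdown, aldolase splits it, phosphoglycerate kinase makes ATP, enolase forms phosphoenolpyruvate, and lactate dehydrogenase turns the final pyruvate into lactate while regenerating NAD+. Several of these genes are textbook targets of the hypoxia-inducible factors HIF1A and EPAS1, and cells in the interior of a spheroid can meet less oxygen and glucose than cells in a monolayer. Transcript levels do not measure enzyme activity or flux.

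Library totals ran from 29.7 to 72.5 M counts. A pair of groups stood apart. The 2 HCC1806 monolayer libraries differed from each other with an SD of the log2 difference over genes of 1.87, against 0.233 to 0.367 in the HCC1806 spheroids and the BT474 groups, and the mitochondrial genome took 17.8% of counts in replicate 1 and 0.768% in replicate 2. The ZR-75-30 libraries had mitochondrial shares of 1.96% and 20.5% and an SD of 0.987, and the CAL148 libraries an SD of 0.863. Of 6 epithelial markers none was at 0 in both libraries of any group, while PTPRC, the pan-leukocyte surface marker, reached at most 0.109 CPM (counts scaled to the same library size) and was at 0 in all 6 BT474 libraries, although another leukocyte marker was not (below). Because of the HCC1806 monolayers, tests among the other HCC1806 and BT474 groups used a fit of the 10 libraries without them. That choice was made with the wide spread of the pair already known, and it matters: with the HCC1806 monolayers included, in a fit of 12 libraries, none of the 10 genes was called in BT474 spheroids against monolayers or in day 20 against day 10 in either line, with nearly the same log2 fold changes (in BT474 at day 20, HK1 -0.63, edgeR adjusted p = 0.589; LDHA -0.63, edgeR adjusted p = 0.956).

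A limit of counting touched 2 of the genes. In GENCODE 29, whose gene positions matched the deposited table for 29 of 29 genes checked, 93.8% of the coding bases of ALDOA (chr16:30064164-30070457, plus strand, GRCh38) lie under exons of AC093512.2, a protein-coding gene on the same strand that shares 1657 exon bases with it. For LDHB (chr12:21635342-21757857, minus strand) 93.5% of coding bases lie under AC010197.2, which shares 997 exon bases. None of the coding bases of the other 8 genes lie under another coding gene of the same strand. The setting of the counter for reads that fall on 2 genes was not given in the sources used here. ALDOA held 1.89 to 22.9 CPM and LDHB 0 to 21.5 CPM, while AC093512.2, the overlapping gene of ALDOA, had 8 to 383 counts and AC010197.2 had 0 in every library. Levels of ALDOA and LDHB are therefore those of the deposited counts and may leave out most reads of the coding sequence.

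**Figure D1:**
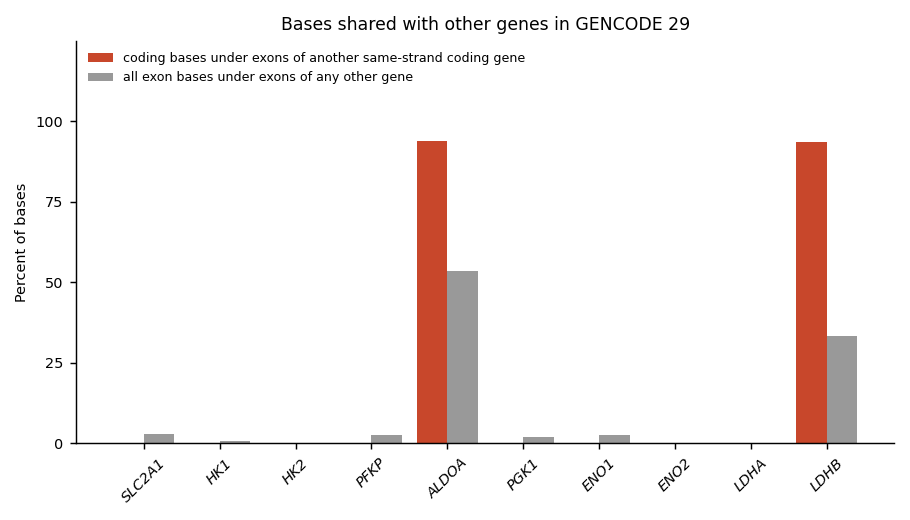
Percent of bases (vertical axis) of each of the 10 genes (horizontal axis) that lie under exons of other genes in GENCODE 29. Red bars, coding bases under another protein-coding gene of the same strand, stand at 93.8% for ALDOA and 93.5% for LDHB and at 0 for the rest; grey bars, all exon bases under any other gene, stand at 53.5% and 33.4% for the same pair.

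A promoter window each of HK2, ENO2 and LDHA is printed because these 3 genes were the members that rose together at day 20 in HCC1806 spheroids (values below), and that of SLC2A1 because it was called higher in HCC1806 spheroids at both days. Each window runs from 250 bases before to 50 bases after an annotated start (RefSeq, GRCh38.p14). HK2 and LDHA have 2 windows each, and the one with more matches to the letters searched is shown. Capitals mark ACGTG, 1 form of the core letters of the hypoxia response element, on either strand. Other forms of that core were not searched. A match on both strands at once reads CACGTG, which is also the E-box bound by MYC and the carbohydrate response factors.
HK2 chr2:74834920-74835219 (+): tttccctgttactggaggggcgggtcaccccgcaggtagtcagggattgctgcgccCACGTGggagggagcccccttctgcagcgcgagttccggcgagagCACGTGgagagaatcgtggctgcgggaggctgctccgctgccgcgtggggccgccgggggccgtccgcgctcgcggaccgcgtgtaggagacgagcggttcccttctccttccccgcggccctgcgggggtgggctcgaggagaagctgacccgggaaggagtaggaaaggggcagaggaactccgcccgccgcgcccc
ENO2 chr12:6914330-6914629 (+): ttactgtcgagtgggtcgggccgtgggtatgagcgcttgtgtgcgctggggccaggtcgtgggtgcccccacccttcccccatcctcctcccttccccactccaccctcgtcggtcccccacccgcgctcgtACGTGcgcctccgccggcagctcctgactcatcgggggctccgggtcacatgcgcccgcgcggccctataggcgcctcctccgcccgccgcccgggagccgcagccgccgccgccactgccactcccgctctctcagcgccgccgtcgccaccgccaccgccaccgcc
LDHA chr11:18394313-18394612 (+): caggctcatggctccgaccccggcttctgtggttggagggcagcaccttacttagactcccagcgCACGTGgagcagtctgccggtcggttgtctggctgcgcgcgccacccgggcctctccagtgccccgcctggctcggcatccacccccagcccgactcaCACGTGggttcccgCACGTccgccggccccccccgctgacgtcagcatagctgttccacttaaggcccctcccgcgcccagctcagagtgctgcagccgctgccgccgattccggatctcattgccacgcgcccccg
SLC2A1 chr1:42958819-42959118 (-): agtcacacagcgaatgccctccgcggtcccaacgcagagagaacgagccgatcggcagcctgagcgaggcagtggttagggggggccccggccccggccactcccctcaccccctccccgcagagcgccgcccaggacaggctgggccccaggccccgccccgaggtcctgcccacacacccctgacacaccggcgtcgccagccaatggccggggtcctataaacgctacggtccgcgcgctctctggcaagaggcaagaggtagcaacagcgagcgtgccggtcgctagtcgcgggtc
Counted on both strands, the LDHA window shown held 5 matches in 3 marked stretches, that of HK2 4 matches in 2 stretches and that of ENO2 1 match, since each CACGTG counts once on either strand. The LDHA window not shown held 0 matches, that of HK2 2, and the single window of SLC2A1 0. All 10 genes had a window, 23 windows in all, and 9 of the 23 (39.1%), from 6 genes, held ACGTG, against 21.4% of 35116 human promoter windows of the same 300 bases. PFKP, ALDOA and PGK1 were among those genes, with 3 matches in the PGK1 window. None of them was called in HCC1806 day 20 against day 10 (log2 fold changes 0.07, -0.06 and 0.01), so the letters were not particular to the members that rose. A match describes letters and not a bound site.

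Per length, on the deposited FPKM scale (counts scaled by the authors for gene length and library size), ENO1 was the most abundant member in the HCC1806 and BT474 groups, with a mean level of 286 FPKM in HCC1806 day 20 spheroids, 294 FPKM in day 10 spheroids and 542 FPKM in monolayers. LDHA followed it in HCC1806, at 140.2 FPKM on day 20 and 111 FPKM on day 10, and SLC2A1 came next at 117 and 104 FPKM. In BT474 monolayers ENO1 had a mean of 173 FPKM and LDHA 91.5 FPKM, with PGK1 close by at 89.6 FPKM and HK1 at 76 FPKM, while SLC2A1 had 32.2 FPKM. The widest range over the 16 libraries among members with counts everywhere was that of HK2, whose highest library (189 CPM, BT474 day 10 replicate 2) was 18.7 times its lowest (10.1 CPM, HCC1806 monolayer replicate 1). The narrowest was that of LDHA, at 3.52 times.

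**Figure D2:**
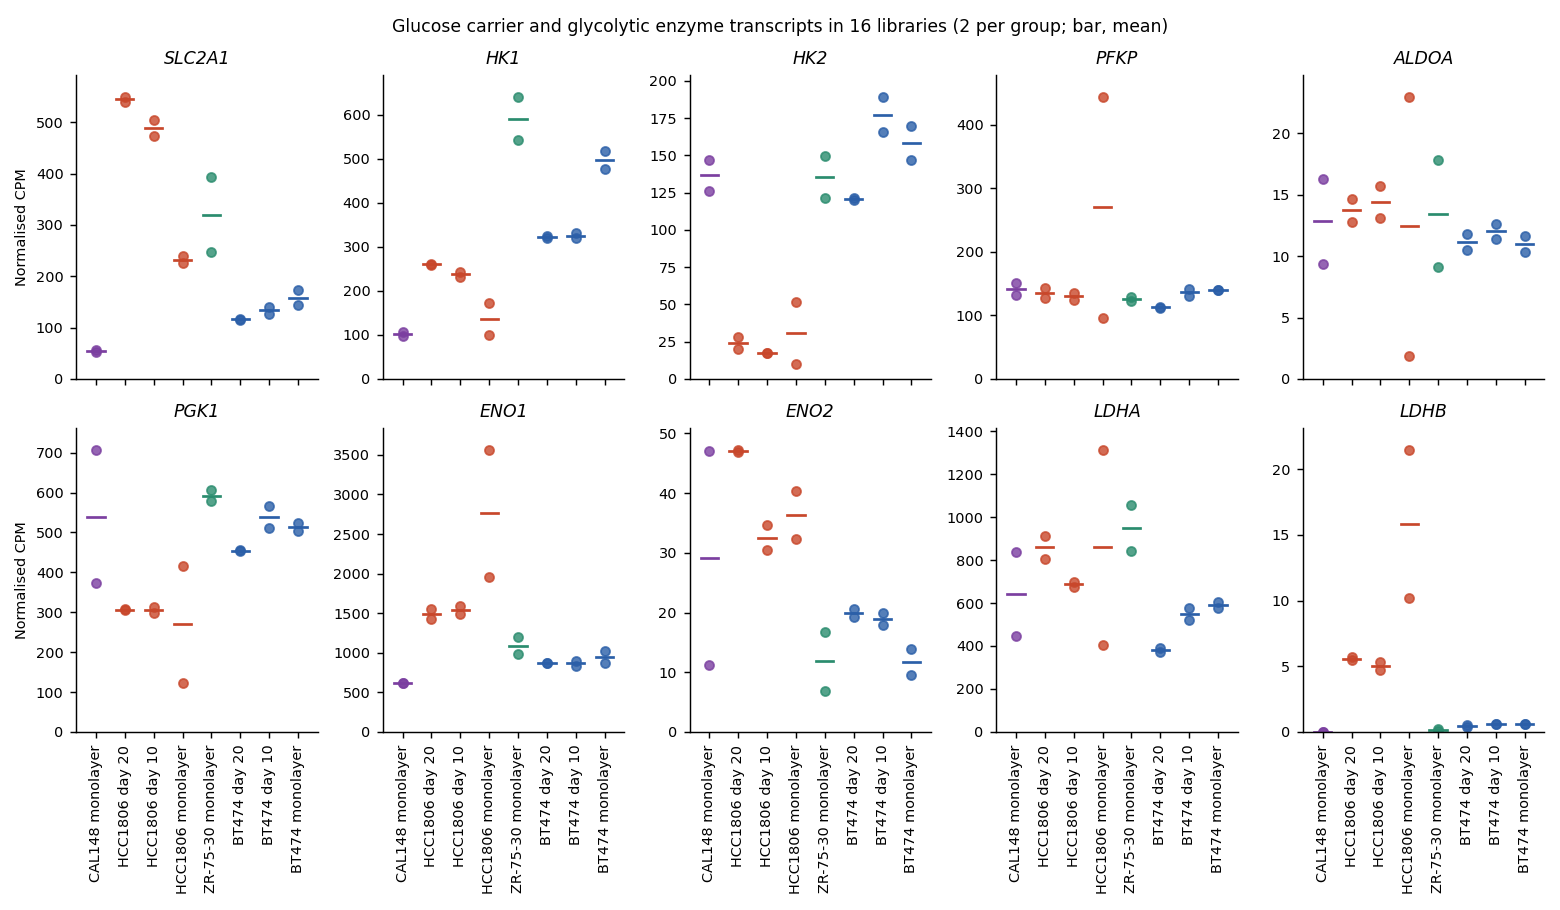
Normalised CPM (vertical axes, linear, from 0) of the 10 genes in 8 groups (horizontal axes), with a point for each of 2 libraries and a bar at their mean. SLC2A1 sits highest in the 4 HCC1806 spheroid libraries, HK2 is low in all 6 HCC1806 libraries, and the HCC1806 monolayer pair spreads widely for PFKP, PGK1, LDHA and ALDOA.

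The first comparison asked which members differed between spheroids and monolayers within a line. Calls were made with edgeR's quasi-likelihood test at a Benjamini-Hochberg adjusted p, over all genes tested, under 0.05. In BT474 day 20 spheroids 6 of 10 members were called, 5 lower and ENO2 higher, where 14.6% of all 20606 tested genes were called, 7.24% lower and 7.4% higher. In BT474 day 10 spheroids 2 were called, HK1 lower and ENO2 higher, with 12.2% of genes called, 5.67% lower and 6.58% higher. In HCC1806 day 20 spheroids 3 were called, SLC2A1 and HK1 higher and LDHB lower, with 11.1% of 20929 genes called, 6.24% higher and 4.85% lower. In HCC1806 day 10 spheroids 2 were called, SLC2A1 higher and LDHB lower, with 8.72% of genes called, 5.14% higher and 3.58% lower. The median log2 fold change of the members was -0.30 in BT474 at day 20 and 0.01 at day 10, and 0.07 in HCC1806 at day 20 and -0.25 at day 10, while the median of all genes tested was 0 in each. Both days share their monolayers within a line, so their agreement is not separate evidence. In whole-culture RNA, fewer cells that express a gene and less of its RNA per cell cannot be told apart.

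SLC2A1 encodes GLUT1, the carrier that supplies basal glucose to most cells. It had 540.1 and 549 CPM in HCC1806 day 20 spheroids and 505 and 474 CPM in day 10 spheroids, against 239.5 and 225 CPM in HCC1806 monolayers. All 4 spheroid libraries lay above both monolayers, and the monolayer pair, so wide elsewhere, was close for this gene. It rose 2.33-fold at day 20 (log2 fold change 1.22 ± 0.16 SE, edgeR adjusted p = 0.00404) and 2.10-fold at day 10 (1.07 ± 0.16, edgeR adjusted p = 0.00775). With either monolayer library left out the log2 fold change stayed at 1.19 and 1.20 at day 20 and at 1.04 and 1.05 at day 10. The day 10 call was lost without day 10 replicate 1 (edgeR adjusted p = 0.0776) or replicate 2 (0.0690). A fit of the HCC1806 libraries compared alone, where the monolayer spread is not pooled with BT474, did not call it (edgeR adjusted p = 0.539 at day 20 and 0.635 at day 10).

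Markers of cell type also differed with culture form in HCC1806. The summed level of 6 fibroblast markers was 83.1 to 98.5 CPM in day 20 spheroids and 67.2 to 67.6 CPM in day 10 spheroids, against 21.2 to 45.7 CPM in monolayers, most of it from COL1A1. COL3A1 averaged 6.49 CPM at day 20 and 0.611 CPM at day 10, against 0.068 CPM in monolayers, while COL1A2 was at 0 in all day 10 and monolayer libraries and DCN averaged at most 0.67 CPM in any of the 3 groups. The summed level of 6 epithelial markers was 3039 to 3239 CPM at day 20 and 4050 to 4444 CPM at day 10, against 4668 to 7404 CPM in monolayers. Monolayer KRT19 alone had 4156 CPM in replicate 1 and 1900 CPM in replicate 2. EPCAM, KRT7, KRT8, KRT18 and KRT19 averaged lower at both days than in monolayers. CDH1 did not, with means of 199 CPM at day 20 and 266 CPM at day 10, against 194 CPM in monolayers. The part of either set of markers in the HCC1806 results, those between the 2 days included, was not tested.

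In BT474 spheroids the carrier was lower. It had 117 and 115 CPM in BT474 day 20 spheroids and 127 and 140.3 CPM in day 10 spheroids, against 143 and 174 CPM in BT474 monolayers. Neither spheroid group overlapped the monolayers, and the day 20 libraries lay below both day 10 libraries. It fell by 0.45 ± 0.09 on the log2 scale at day 20 (edgeR adjusted p = 0.00382), and the day 10 log2 fold change was -0.25 ± 0.09 (edgeR adjusted p = 0.0799). The difference between the lines, HCC1806 minus BT474, was 1.67 ± 0.23 at day 20 (edgeR adjusted p = 0.0146; 2.77% of genes called, 1.79% higher) and 1.31 ± 0.23 at day 10 (edgeR adjusted p = 0.0372; 1.35% called, 0.956% higher). With 1 library left out these differences kept their size but were called in 3 of 8 fits at day 20 and 2 of 8 at day 10. Over the 8 groups SLC2A1 ran in the order HCC1806 day 20, HCC1806 day 10, ZR-75-30, HCC1806 monolayer, BT474 monolayer, BT474 day 10, BT474 day 20 and CAL148, and no neighbours in that order overlapped.

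The hexokinases phosphorylate glucose on entry. HK1 is the housekeeping form, and HK2 is the inducible form that many tumours raise. HK1 had 321 and 324 CPM in BT474 day 20 spheroids and 321 and 330.4 CPM in day 10 spheroids, against 518.5 and 477.5 CPM in monolayers. The 4 spheroid libraries fell within a narrow band far below both monolayers. It fell by 0.63 ± 0.07 on the log2 scale at day 20 (edgeR adjusted p = 4.12e-05) and by 0.62 ± 0.07 at day 10 (edgeR adjusted p = 5.16e-05), and both calls held with each of 4 libraries left out. The mitochondrial share of counts was 3.89% to 6.30% in BT474 spheroids and 2.31% to 2.43% in monolayers. The summed level of 4 leukocyte markers was 15.5 to 24.9 CPM in BT474 spheroids and 0.283 to 0.404 CPM in monolayers, through LYZ (lysozyme) and not PTPRC. The part of either in the BT474 results was not tested.

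In HCC1806 HK1 had 262 and 259 CPM in day 20 spheroids and 242 and 233 CPM in day 10 spheroids, against 101 and 174 CPM in monolayers. All spheroid libraries were above both monolayers, though the monolayers themselves differed widely. It rose 1.89-fold at day 20 (log2 fold change 0.92 ± 0.24, edgeR adjusted p = 0.0416), and the day 10 value was 0.78 ± 0.24 (edgeR adjusted p = 0.0774). The size of the day 20 change depended on which monolayer library was kept, at 1.38 with replicate 1 alone and 0.50 with replicate 2 alone, and the call was lost without day 20 replicate 1 (edgeR adjusted p = 0.202) or replicate 2 (0.191). The difference between the lines in the day 20 effect was 1.55 ± 0.33 (edgeR adjusted p = 0.0501), which did not pass.

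HK2 had 121 and 120.2 CPM in BT474 day 20 spheroids and 166 and 189 CPM in day 10 spheroids, against 147 and 169.9 CPM in BT474 monolayers. The day 20 libraries lay below all the others, and the day 10 libraries overlapped the monolayers. It fell by 0.40 ± 0.12 on the log2 scale at day 20, at the very edge of the threshold (edgeR adjusted p = 0.04996), and the call was lost without monolayer replicate 2 (edgeR adjusted p = 0.252), day 20 replicate 1 (0.182) or day 20 replicate 2 (0.219). In HCC1806 HK2 had 28.3 and 20.4 CPM in day 20 spheroids and 17.2 and 17.7 CPM in day 10 spheroids, against 10.1 and 51.6 CPM in monolayers. The monolayer libraries bracketed all 4 spheroid libraries, so no direction can be read: the day 20 log2 fold change was 1.27 with monolayer replicate 1 alone and -1.17 with replicate 2 alone.

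PFKP is the platelet-type phosphofructokinase, ALDOA the main aldolase outside liver, and PGK1 the kinase of the first ATP-yielding step. PFKP had 111 and 114 CPM in BT474 day 20 spheroids and 131 and 142 CPM in day 10 spheroids, against 139.5 and 140.2 CPM in monolayers. It fell by 0.31 ± 0.08 on the log2 scale at day 20 (edgeR adjusted p = 0.0184), a call lost without day 20 replicate 1 (edgeR adjusted p = 0.124) or replicate 2 (0.0987). PGK1 had 453 and 457 CPM in BT474 day 20 spheroids, against 523 and 505 CPM in monolayers, and did not pass (log2 fold change -0.18 ± 0.07, edgeR adjusted p = 0.1002). ALDOA, under the counting limit above, had 11.8 and 10.5 CPM in BT474 day 20 spheroids, against 11.6 and 10.3 CPM in monolayers, and the groups overlapped. In HCC1806 none of these 3 genes was called, and the monolayer pair spanned the spheroids for PFKP (96.7 and 444 CPM), PGK1 (124 and 416 CPM) and ALDOA (1.89 and 22.9 CPM).

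The enolases are ENO1, the ubiquitous form, and ENO2, the neuronal form that is also induced in many tumour cells. ENO2 had 19.3 and 20.7 CPM in BT474 day 20 spheroids and 18.0 and 20.0 CPM in day 10 spheroids, against 13.9 and 9.48 CPM in monolayers. Every spheroid library was above both monolayers. ENO2 rose 1.71-fold at day 20 (log2 fold change 0.77 ± 0.15, edgeR adjusted p = 0.00458) and 1.62-fold at day 10 (0.69 ± 0.15, edgeR adjusted p = 0.00921). The day 20 call held with each of 4 libraries left out and the day 10 call in 3 of 4, the exception being day 10 replicate 2 (edgeR adjusted p = 0.101). ENO2 was the only member called higher in BT474 spheroids. ENO1 had 869 and 866 CPM in BT474 day 20 spheroids, against 1026 and 871 CPM in monolayers, with a log2 fold change of -0.13 ± 0.08 that did not pass (edgeR adjusted p = 0.331). In HCC1806 ENO1 had 1556 and 1424 CPM in day 20 spheroids, against 1963 and 3561 CPM in monolayers, and the value of -0.90 ± 0.28 did not pass either (edgeR adjusted p = 0.0721).

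LDHA encodes the lactate dehydrogenase subunit that favours lactate production, and LDHB the subunit that favours its use. LDHA had 391 and 373 CPM in BT474 day 20 spheroids and 519 and 575 CPM in day 10 spheroids, against 606 and 577 CPM in BT474 monolayers. The day 20 libraries were below all the others. It fell by 0.63 ± 0.08 on the log2 scale at day 20 (edgeR adjusted p = 0.000116), with the call kept in all 4 fits with a library left out, and the day 10 value was -0.12 ± 0.08 (edgeR adjusted p = 0.377). In HCC1806 LDHA had 912 and 807 CPM in day 20 spheroids and 697 and 675 CPM in day 10 spheroids, against 406 and 1312 CPM in monolayers, which bracketed them.

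LDHB counts, also under the counting limit, were 5.68 and 5.46 CPM in HCC1806 day 20 spheroids and 4.69 and 5.31 CPM in day 10 spheroids, against 21.5 and 10.2 CPM in HCC1806 monolayers. All spheroid libraries were lower, and LDHB fell by 1.51 ± 0.38 on the log2 scale at day 20 (edgeR adjusted p = 0.0377) and by 1.67 ± 0.38 at day 10 (edgeR adjusted p = 0.0314). Without monolayer replicate 1 the day 20 value was -0.95 and without replicate 2 it was -1.94. Both calls were lost without either library of the spheroid group compared (edgeR adjusted p 0.192 to 0.223). In BT474 LDHB held 0.392 to 0.631 CPM in all 6 libraries and was not called.

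**Figure D3:**
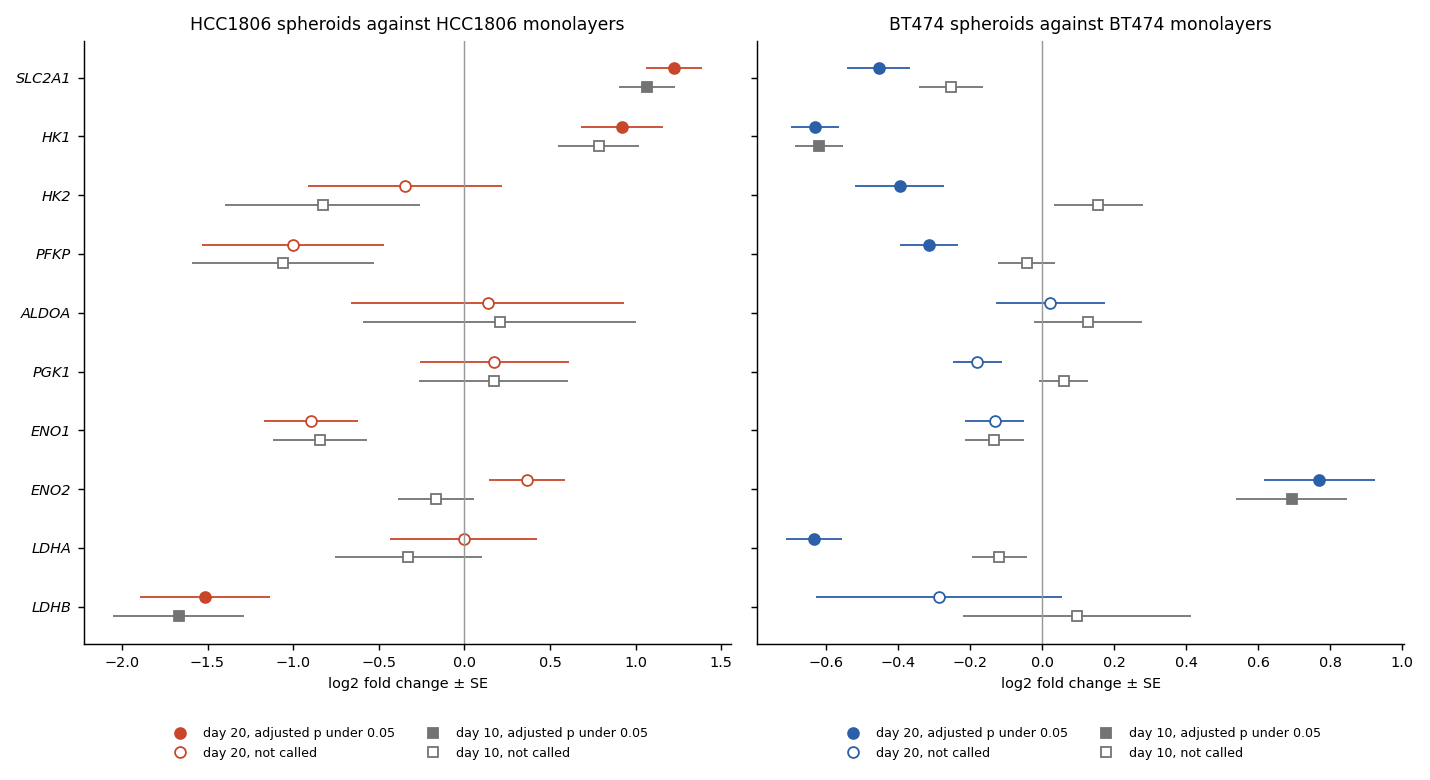
Log2 fold change ± SE (horizontal axes, with their own ranges) of the 10 genes in spheroids against monolayers, HCC1806 on the left and BT474 on the right; circles are day 20, squares day 10, and filled symbols have an edgeR adjusted p under 0.05. SLC2A1 and HK1 lie above 0 in HCC1806 and below 0 in BT474, and the error bars are wider in HCC1806 than in BT474. The HCC1806 panel comes from the fit of 12 libraries with the wide HCC1806 monolayer pair, and the BT474 panel from the fit of 10 without it. The widths of the bars therefore do not compare the lines.

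The second comparison asked whether older spheroids differed from younger ones. No monolayer is among the groups it compares, but the BT474 monolayers are in the fit of 10 libraries and help set its spread. In HCC1806 day 20 against day 10 3 of 10 members were called, all higher, with 6.8% of 20606 genes called, 3.2% higher and 3.6% lower. LDHA rose 1.26-fold (log2 fold change 0.33 ± 0.08, edgeR adjusted p = 0.0188), ENO2 1.45-fold (0.54 ± 0.15, edgeR adjusted p = 0.0423) and HK2 1.40-fold (0.49 ± 0.13, edgeR adjusted p = 0.0490). For each of the 3 both day 20 libraries were above both day 10 libraries in the values above. ENO2 had 47.2 and 46.9 CPM at day 20, against 30.5 and 34.7 CPM at day 10. The 3 were picked by their calls, so this separation is not separate evidence. These calls were close to the threshold: with each of 4 libraries left out, LDHA and HK2 were called only without day 20 replicate 2 and ENO2 in no fit (edgeR adjusted p of the lost calls up to 0.403), and 12 libraries fitted together called none of the 3.

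In BT474 day 20 against day 10 only LDHA of the 10 was called, lower, where 0.281% of genes were called, 0.189% lower. It fell by 0.51 ± 0.08 on the log2 scale (edgeR adjusted p = 0.0196), and the call was lost with any of 4 libraries left out (edgeR adjusted p 0.0728 to 0.267), although its value stayed between -0.59 and -0.44. HK2 had a log2 fold change of -0.55 ± 0.12 that did not pass (edgeR adjusted p = 0.101).

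The direct test of the difference between the lines was past the threshold for 2 members, where 2.67% of genes were called, 1.56% higher. For LDHA the day 20 against day 10 change was higher in HCC1806 than in BT474 by 0.85 ± 0.11 on the log2 scale (edgeR adjusted p = 0.00102), and it was called in 8 of 8 fits with a library left out. For HK2 the difference was 1.04 ± 0.18 (edgeR adjusted p = 0.00910), called in 7 of 8; without HCC1806 day 10 replicate 1 the adjusted p was 0.0546. With 12 libraries fitted together neither was called.

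**Figure D4:**
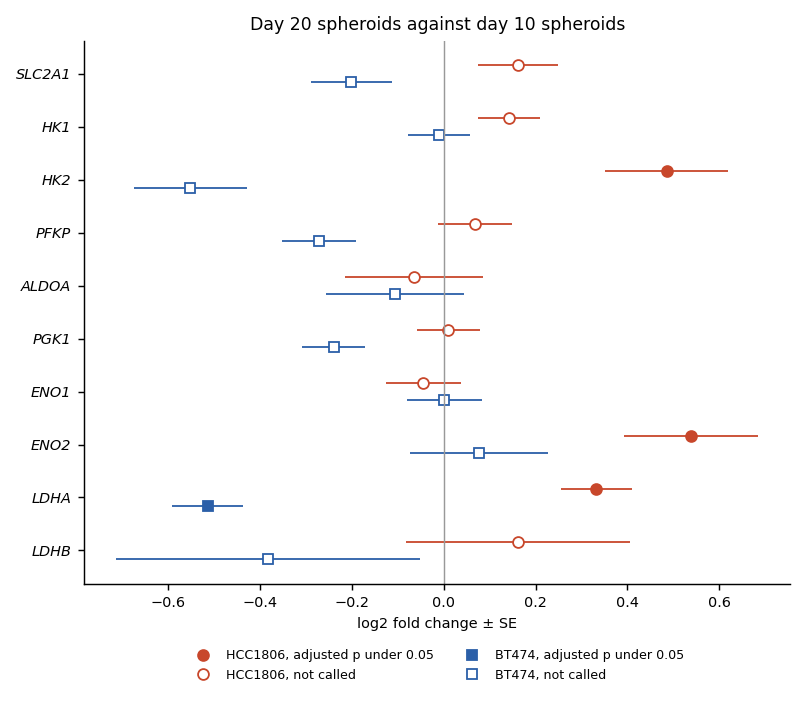
Log2 fold change ± SE (horizontal axis) of the 10 genes in day 20 spheroids against day 10 spheroids; red circles are HCC1806, blue squares BT474, and filled symbols have an edgeR adjusted p under 0.05. HK2 stands at 0.49 in HCC1806 and -0.55 in BT474, and LDHA at 0.33 and -0.51.

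The third comparison set the lines side by side as spheroids, where line and medium cannot be told apart. HCC1806 against BT474 gave 8 of 10 members called at day 10 and 9 at day 20, where 70.7% of all genes were called at day 10 (37.5% higher, 33.2% lower) and 71.3% at day 20 (37.7% higher, 33.6% lower), so the number of calls is near the background and the sizes carry the description. SLC2A1 was 4.73-fold higher in HCC1806 at day 20 (log2 fold change 2.24 ± 0.09, edgeR adjusted p = 4.42e-11) and 3.68-fold at day 10. HK2 was lower in HCC1806, by a log2 fold change of -2.30 ± 0.13 at day 20 (edgeR adjusted p = 3.85e-09) and -3.34 ± 0.14 at day 10. HK1 was also lower, at -0.30 and -0.45, and PGK1 at -0.56 and -0.81. LDHA, ENO1, ENO2 and LDHB were higher in HCC1806 on both days. For LDHA the log2 fold change was 1.18 ± 0.08 at day 20 and 0.33 ± 0.08 at day 10. For LDHB, under the counting limit, it was 3.55 ± 0.30 at day 20 and 3.00 ± 0.28 at day 10. PFKP was called on day 20 alone (0.28 ± 0.08), a call lost without HCC1806 day 20 replicate 1 (edgeR adjusted p = 0.0989) or BT474 day 20 replicate 1 (0.0552), and ALDOA on neither day. A fit of all 16 libraries still called 4 members on each day, SLC2A1, HK2, ENO1 and LDHB.

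Within each isozyme pair the share on the FPKM scale does not depend on library scaling. HK2 as a share of HK2 plus HK1 had a median of 8.52% over 6 HCC1806 libraries (range 6.89% to 23.6%) and of 28.0% over 6 BT474 libraries (22.8% to 37.3%), with an exact permutation p = 0.00433 (two-sided, on the difference of means; 0.00649 adjusted over 3 pairs). The ranges met through HCC1806 monolayer replicate 2. CAL148 monolayers had the highest HK2 shares, 58.7% and 57.4%, and ZR-75-30 monolayers had 22.3% and 16.5%. ENO2 as a share of ENO2 plus ENO1 had medians of 2.63% in HCC1806 and 2.62% in BT474 (exact permutation p = 0.407, difference of means 0.406 percentage points). Its day 20 spheroid values in HCC1806, 3.60% and 3.90%, were the highest of that line. LDHB as a share of LDHB plus LDHA, on counts that may miss most LDHB reads, had medians of 1.49% in HCC1806 and 0.221% in BT474 (exact permutation p = 0.00217, the smallest 6 against 6 libraries can give; 0.00649 adjusted). The libraries of 1 line pool spheroids and monolayers here, so the spread includes culture form. They also share their line and medium and are not independent replicates, so these p-values describe the libraries and not lines in general.

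**Figure D5:**
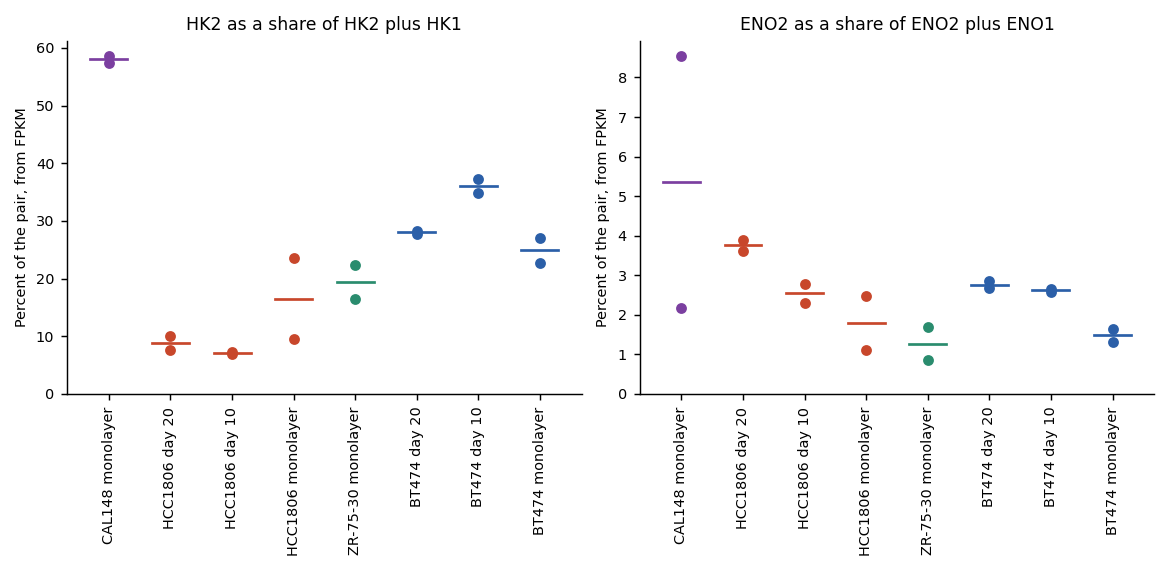
HK2 as a percent of HK2 plus HK1 (left) and ENO2 as a percent of ENO2 plus ENO1 (right), from FPKM (vertical axes, from 0), in 8 groups (horizontal axes); points are the 2 libraries of a group and bars their mean. CAL148 stands highest for HK2 at 58.7% and 57.4%, and 5 of the 6 HCC1806 libraries lie at or below 10.1%.

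Among monolayers the spread within groups was wide, and few members passed. CAL148 against HCC1806 gave 3 lower members, SLC2A1, ENO1 and LDHB, where 20.2% of 19594 genes were called, 12.4% lower. SLC2A1 had 53.0 and 57.4 CPM in CAL148 and 239.5 and 225 CPM in HCC1806 (log2 fold change -2.10 ± 0.36, edgeR adjusted p = 0.00948). ENO1 had 618 and 621 CPM in CAL148 and 1963 and 3561 CPM in HCC1806 (-2.18 ± 0.45, edgeR adjusted p = 0.0174). Both calls were lost without either CAL148 library (edgeR adjusted p 0.0796 to 0.125). LDHB had 0 counts in both CAL148 libraries, at least 287-fold lower than in HCC1806 monolayers when 3 counts over the group are taken as the limit. That limit covers counting error only, and LDHB counts are also under the counting limit above, so 0 counts does not show that the transcript is absent.

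CAL148 against BT474, both in DMEM, also gave 3 lower members, SLC2A1, HK1 and LDHB, with 6.37% of genes called, 3.88% lower. HK1 had 108 and 97.5 CPM in CAL148 and 518.5 and 477.5 CPM in BT474 (log2 fold change -2.26 ± 0.39, edgeR adjusted p = 0.0196). SLC2A1 passed narrowly (-1.50 ± 0.35, edgeR adjusted p = 0.0482), and LDHB, under the counting limit, was at least 12.7-fold lower. Leaving out any of the 4 libraries ended all 3 calls (edgeR adjusted p 0.103 to 0.337). HCC1806 against ZR-75-30, both in RPMI, gave HK1 lower (-2.04 ± 0.39, edgeR adjusted p = 0.0122) and LDHB higher, with 20.5% of genes called, 8.04% lower and 12.5% higher; without ZR-75-30 replicate 2 the adjusted p of HK1 was 0.0590. HK1 had 101 and 174 CPM in HCC1806 and 542 and 640.1 CPM in ZR-75-30. LDHB, under the counting limit, had 544 and 374 counts in HCC1806 and 3 and 4 counts in ZR-75-30.

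ZR-75-30 against BT474 called none of the 10 with edgeR, where 8.04% of genes were called and 5184 of 19594 had an unadjusted p under 0.05; DESeq2 called 1 member and an edgeR fit of all 16 libraries 2. SLC2A1 had 246.5 and 393 CPM in ZR-75-30 and 143 and 174 CPM in BT474, groups that did not overlap (log2 fold change 1.00 ± 0.35, edgeR adjusted p = 0.119).

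The rest of the pathway was counted from lists. Of 19 other glycolytic enzymes, among them GAPDH, PKM, GPI and TPI1, 15 had enough counts to test. BT474 spheroids had 2 of them lower at day 20 (7.24% of all genes were lower), GAPDH (log2 fold change -0.31 ± 0.09, edgeR adjusted p = 0.0428) and GPI (-0.27 ± 0.08, edgeR adjusted p = 0.0465), and 0 called at day 10. In that BT474 day 10 comparison 12.2% of all genes were called. Day 20 against day 10 called 0 in either line, where 6.8% of all genes were called in HCC1806 and 0.281% in BT474. HCC1806 spheroids against monolayers called ALDOC at day 20 (1.71 ± 0.41, higher) and 0 at day 10. There 11.1% of all genes were called at day 20 and 8.72% at day 10, with the wide HCC1806 monolayer pair in both comparisons. ALDOC and the genes called at day 20 in BT474 were named after their values were seen.

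Of 16 tested carriers of glucose, related sugars and lactate, SLC16A3, the lactate exporter MCT4, was higher in BT474 spheroids at both days (log2 fold change 0.88 ± 0.24 at day 20, edgeR adjusted p = 0.0398, and 0.88 ± 0.24 at day 10, edgeR adjusted p = 0.0431), and day 20 added 2 lower carriers, where 14.6% of all genes were called at day 20 and 12.2% at day 10. It had 13.6 and 14.2 CPM in BT474 day 20 spheroids and 13.0 and 14.8 CPM in day 10 spheroids, against 10.1 and 5.04 CPM in monolayers. In HCC1806, where its level was higher, it had 75.8 and 71.6 CPM in day 20 spheroids and 115 and 110.1 CPM in day 10 spheroids, against 135.5 and 194.5 CPM in monolayers. There it was lower than in monolayers at day 20 (-1.17 ± 0.30, edgeR adjusted p = 0.0431), and the day 10 value of -0.56 ± 0.30 did not pass (edgeR adjusted p = 0.279). The difference between the lines, HCC1806 minus BT474, was -2.05 ± 0.43 at day 20 (edgeR adjusted p = 0.0476) and -1.44 ± 0.43 at day 10 (edgeR adjusted p = 0.144). The SLC16A3 calls lie near the threshold, and those that involve HCC1806 use its wide monolayer pair. How they hold with a library left out was not examined for this gene. In HCC1806 day 20 against day 10, SLC16A7, a monocarboxylate carrier, was lower (-0.75 ± 0.12, edgeR adjusted p = 0.00175), as was SLC2A10 (-0.61 ± 0.12, edgeR adjusted p = 0.00757). SLC2A5, the fructose carrier, was called higher on 10 and 30 counts at day 20, against 0 and 0 at day 10.

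Of 19 regulators of flux and of pyruvate entry into mitochondria, 4 were called in BT474 at day 20 (1 higher, 3 lower) and 5 at day 10 (2 higher, 3 lower), where 14.6% and 12.2% of all genes were called. In HCC1806 spheroids 4 were called against monolayers at each day (3 higher, 1 lower), where 11.1% of all genes were called at day 20 and 8.72% at day 10. In BT474 spheroids the pyruvate dehydrogenase kinases split. PDK4 was higher in BT474 at day 20 (log2 fold change 0.98 ± 0.27, edgeR adjusted p = 0.0256). It had only 2.03 and 1.96 CPM there, against 1.12 and 0.90 CPM in BT474 monolayers. PDK2 was lower in the same BT474 comparison (-0.58 ± 0.10, edgeR adjusted p = 0.00146). DLAT, the E2 subunit of pyruvate dehydrogenase, was lower too (-0.40 ± 0.07, edgeR adjusted p = 0.00273). In HCC1806 the same 2 kinases were both called higher against monolayers, PDK4 by 2.82 ± 0.35 and PDK2 by 0.81 ± 0.21 at day 20. Both values use the wide HCC1806 monolayer pair, and fits with a library left out were not examined for these kinases. ARRDC4, a relative of TXNIP that restrains glucose uptake, was higher in HCC1806 at day 20 than at day 10 (0.52 ± 0.10, edgeR adjusted p = 0.00813), and lower in BT474 day 20 spheroids than in monolayers (-0.48 ± 0.11, edgeR adjusted p = 0.00786).

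Of 20 HIF response genes outside glycolysis, BT474 spheroids had 7 higher and 3 lower at day 20 (median log2 fold change 0.23) and 7 higher and 1 lower at day 10 (0.33), where 7.4% of all genes were higher and 7.24% lower at day 20, and 6.58% higher and 5.67% lower at day 10. HCC1806 spheroids against their monolayers had 7 higher and 0 lower at day 20 (median 1.02) and 5 higher and 1 lower at day 10 (0.63), where 6.24% of all genes were higher and 4.85% lower at day 20, and 5.14% higher and 3.58% lower at day 10. In BT474 spheroids DDIT4, an inhibitor of mTORC1, was 1.94 ± 0.12 higher on the log2 scale at day 20, VEGFA 0.76 ± 0.12 higher, and CA12, a carbonic anhydrase, 1.55 ± 0.12 lower (a log2 fold change of -1.55). In the same comparison 5 glycolytic members were lower. In HCC1806 day 20 against day 10, 6 HIF response genes were higher and 0 lower (median 0.23; 3.2% of all genes higher), with VEGFA at 1.10 ± 0.12 (edgeR adjusted p = 9.02e-05) and LOX, a matrix crosslinking enzyme, at 1.71 ± 0.27 (edgeR adjusted p = 0.00155), alongside HK2, ENO2 and LDHA. HIF1A transcript itself was higher in BT474 spheroids at day 20 (0.41 ± 0.10, edgeR adjusted p = 0.0141) and day 10 (0.49 ± 0.10, edgeR adjusted p = 0.00541).

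The genes most like 4 of the members over the 16 libraries, among 8116 protein-coding genes with a mean of at least 20 CPM, are given as a description, since libraries of a line share their line, medium and depth pattern. For SLC2A1 they were SMAD3, GJB2 and MYH14 (Pearson r of log2 CPM 0.97, 0.97 and 0.96). For HK2 they were GSR, EARS2 and METTL13 (0.98 each). For LDHA the nearest were less close, CALM3, HTATSF1 and FAM83D (0.88, 0.87 and 0.86). For LDHB they were WRNIP1, GPN1 and CTAG2 (0.97 each).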

How the data were processed

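Poly(A) RNA from 16 libraries was sequenced as read pairs, per the labels' protocols. Per the submitters' processing notes, reads were aligned to GRCh38 with HISAT2 2.2.1 and counted with featureCounts 2.0.6; the strand, overlap and multi-mapping settings are not given in the sources used here. The authors deposited whole-number counts per gene, the unit tested here, and FPKM made from the same counts with a scaling factor per library, used for isozyme shares, levels between genes and an alternative. Among low counts, even values outnumber odd values 1.51 to 2.04 times. If both mates of a pair were counted, the limit of 3 counts is too low, and the folds given for LDHB from that limit are too high.

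Members and gene lists were chosen with earlier results of these data known. R 4.3.3 and edgeR 4.0.16 (TMM, filterByExpr with a minimum count of 10 and a total of 15, robust quasi-likelihood F tests, Benjamini-Hochberg) were run on all genes, in fits of 10 libraries (without the HCC1806 monolayers), 12 libraries (comparisons with them) or the 8 monolayers, for 15 comparisons. Printed CPM use TMM factors over all 16 libraries. Isozyme shares used exact permutation tests (SciPy 1.17.1), and figures matplotlib 3.10.9. Other genes are named when called in both BT474 spheroid groups or in HCC1806 day 20 against day 10. At most 6 a list qualify, by size of change. Not all HIF response genes that qualify are described. Alternatives were other scaling, filters and library sets, a replicate block, DESeq2 1.42.0, limma 3.58.1 on log2(FPKM + 1), and each library left out. A gene that this naming rule selects is not reported here.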

Additional observations from a re-analysis of the deposited data

Results flagged for a closer look

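Differences between the lines in the same comparison, tested directly as an interaction in edgeR, passed for SLC2A1, LDHA and HK2. For SLC2A1 the effect of spheroid growth against monolayer, HCC1806 minus BT474, was 1.67 on the log2 scale at day 20 and 1.31 at day 10. SLC2A1 was higher in all 4 HCC1806 spheroid libraries and lower in all 4 BT474 spheroid libraries than in the monolayers of the same line. With libraries left out in turn these differences stayed between 1.54 and 1.82 at day 20 and between 1.18 and 1.46 at day 10, but were called in 3 of 8 fits at day 20 (without either HCC1806 monolayer library or BT474 monolayer replicate 1) and in 2 of 8 at day 10 (without either HCC1806 monolayer library). For day 20 against day 10 the difference was 0.85 for LDHA and 1.04 for HK2. Each was higher in HCC1806, where both day 20 libraries were above both day 10 libraries, and lower in BT474, where both were below. These genes were picked because they passed, so the order of their libraries is not separate evidence.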

How the results depend on the processing

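TMM against DESeq2 size factors within edgeR changed no count of called members by more than 1.5 times. With all 16 libraries in the fit the members called were 0 in each BT474 comparison, in HCC1806 day 20 against day 10 and in the 3 line differences, 1 in HCC1806 against its monolayers at each day, 4 in HCC1806 against BT474 spheroids at each day, 2 in ZR-75-30 against BT474 and 5 in HCC1806 against ZR-75-30. With 12 libraries in place of 10, members called were 0 in the BT474 comparisons, in HCC1806 day 20 against day 10 and in its line difference, and 5 in HCC1806 against BT474 spheroids at each day. The groups compared alone gave 5 in BT474 day 20 against day 10, 0 in HCC1806 against monolayers and in the 2 line differences that use them, and 1 each in CAL148 and in ZR-75-30 set with HCC1806. Without a count filter members called were 2 in BT474 day 20 against day 10, 5 in HCC1806 against monolayers at each day, 2 in the day 20 line difference and 5 in HCC1806 against ZR-75-30; at least 1 CPM in 2 libraries gave 2 in the day 20 line difference. DESeq2 gave 2 in BT474 day 20 against day 10, 4 in HCC1806 day 10 against monolayer, 3 and 2 in the line differences at day 10 and day 20, 1 in ZR-75-30 against BT474 and 4 in HCC1806 against ZR-75-30. Limma on log2(FPKM + 1) gave 0 in BT474 day 20 against day 10 and 2 in each of those line differences.

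Same-numbered libraries of 28 group pairs had correlated deviations of -0.58 to 0.18, over 0.1 in 3 pairs, so the numbers were not taken as pairing. With the replicate number as a block, members called were 1 in HCC1806 day 20 against day 10, 1 in HCC1806 day 20 against monolayer, 0 in the day 10 line difference and 1 in CAL148 against BT474.

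With libraries left out in turn (a lone library is then assumed to vary like the other groups), members called ran from 4 to 6 in BT474 day 20 and 1 to 3 in day 10 against monolayer, 0 to 0 in BT474 day 20 against day 10, 0 to 2 in HCC1806 day 20 against day 10, 1 to 9 in HCC1806 day 20 and 0 to 9 in day 10 against monolayer, 8 to 9 and 8 to 8 between the lines' spheroids, 0 to 8, 0 to 10 and 1 to 2 in the line differences at day 20, at day 10 and in day 20 against day 10, 1 to 6 in CAL148 against HCC1806, 0 to 0 in ZR-75-30 and in CAL148 against BT474, and 1 to 5 in HCC1806 against ZR-75-30. The HCC1806 monolayer replicate kept decided signs. Against monolayer, log2 fold changes ran from -1.65 to 0.80 (HK2), -1.85 to 0.44 (PFKP), -0.75 to 2.94 (ALDOA), -0.53 to 1.32 (PGK1) and -1.02 to 0.77 (LDHA) at day 10, and from -1.17 to 1.27, -1.80 to 0.50, -0.83 to 2.87, -0.53 to 1.31 and -0.70 to 1.09 at day 20. The line differences in those effects ran from -1.83 to 0.63 (HK2), -1.84 to 0.48 (PFKP), -0.91 to 2.81 (ALDOA), -0.62 to 1.25 (PGK1) and -0.93 to 0.88 (LDHA) at day 10, and from -0.76 to 1.67 (HK2), -1.47 to 0.81 (PFKP), -0.84 to 2.84 (ALDOA) and -0.34 to 1.49 (PGK1) at day 20. The cause was not tested. Isozyme share differences kept their direction without either HCC1806 monolayer library. Outside HCC1806 LDHB held 0 to 0.631 CPM, the lowest level of the members, so depth limits it most there. The counting limit described for ALDOA and LDHB applies to these values too.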

Other observations

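Some genes of the branches that leave glycolysis were lower in older HCC1806 spheroids. Of 22 tested genes of gluconeogenesis and sugar branches, 5 were lower and 0 higher in HCC1806 day 20 against day 10, where 6.8% of all genes were called, 3.6% lower. Among them were PGD, an oxidative enzyme of the pentose phosphate pathway, and TKT, its transketolase. PGD had 519 and 471 CPM at day 20, against 714 and 635 CPM at day 10 (log2 fold change -0.44 ± 0.08, edgeR adjusted p = 0.00391). TKT had 401 and 360.3 CPM at day 20, against 522 and 468 CPM at day 10 (-0.37 ± 0.08, edgeR adjusted p = 0.00922). FBP1, the fructose bisphosphatase of gluconeogenesis, and GPD1L, a glycerol phosphate dehydrogenase, were also lower, at -0.51 ± 0.10 and -0.59 ± 0.09. In BT474 day 20 against day 10 edgeR called 0 of the 22, where 0.281% of genes were called and 1913 of 20606 had an unadjusted p under 0.05.

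PPARGC1A, a coactivator of mitochondrial genes, had 2.41 and 2.27 CPM in HCC1806 day 20 spheroids and 0.77 and 0.68 CPM in day 10 spheroids (log2 fold change 1.69 ± 0.25, edgeR adjusted p = 0.00104). It had 0 counts in both HCC1806 monolayer libraries.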
